A study of Sus scrofa with 39 samples.

Results

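Severe necrotizing enterocolitis (NEC) was compared with mild NEC in the whole blood of preterm piglets; NEC is an inflammatory disease of the preterm intestine in which gut tissue is lost. The comparison takes every NEC piglet of batches 1 and 3, 16 of the 39 piglets of the series, taken by their batch and severity labels. It sets 5 piglets labelled severe, 3 in batch 1 and 2 in batch 3, against 11 labelled mild, 4 in batch 1 and 7 in batch 3. Batch 2 was left out because it holds no mild piglet; its 4 severe piglets and 5 control piglets without NEC (CON) served as a separate set. The 14 CON piglets of batches 1 and 3 show where the control level lies. All piglets of the series were formula fed, with the diagnosis made at necropsy on day 5, and no strain, treatment or genotype is given in the labels. The sources used here state neither the age at blood sampling nor the rule that separated mild from severe lesions. Piglets are named here by group and number; severe piglets 1, 2 and 3 are those of batch 1, and severe piglets 8 and 9 those of batch 3.

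Whole blood mixes red cells and their precursors, platelets, neutrophils, monocytes and lymphocytes, so a transcript level in blood reflects both how many cells of a type there are and how much of the RNA each holds. B cells are recognised by the antigen receptor partners CD79A and CD79B and by the surface protein MS4A1 (CD20), and the transcription factors EBF1 and PAX5 set up and hold the B cell programme. Monocytes carry CD163, CSF1R and ficolin, and neutrophils carry granule proteins; both answer bacterial products through Toll-like receptors and the inflammasome. In bulk blood, fewer cells of a type and less RNA per cell cannot be told apart.

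The 16 libraries held 14.75 M to 28.96 M counts on genes (M stands for mega). Of these, 47.6 to 67.1% fell on the globin genes HBB, HBM, HBQ1 and HBZ. No HBA gene is in this set, so the share is not that of all globin. The 10 most abundant genes took 73.9 to 93.4%, which left 1.01 M to 6.72 M counts for all others. Red cell and platelet markers were abundant, T cell, B cell, monocyte and neutrophil markers were present in every library, and the epithelial markers EPCAM and VIL1 and the liver marker ALB stayed at or below 0.321 CPM (counts per M counts of library, scaled by TMM). The endothelial marker CDH5 was at 0.141 to 0.968 CPM in severe libraries and 0 to 3.84 CPM in mild ones. Of the piglets labelled male, severe piglets 2 and 9 had 0 and 6 counts on the Y-linked gene KDM5D, against 18 to 39 in male mild piglets and 0 to 1 in females. Severe piglet 2 thus goes against its label and severe piglet 9 lies between the sexes. The library of severe piglet 9 also had the fewest genes detected of the 39, at 10674. List medians without both piglets are given where they moved. All 3 severe piglets of batch 1 carry the same run label, which only 1 mild piglet of that batch shares, so run and severity can hardly be told apart there. Mild piglets 1 and 10 stood apart with the lowest levels of monocyte and neutrophil genes, and list medians without them are given where they moved. Each library comes from its own piglet, per the labels, and counts as 1 replicate.

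No single gene passed the test between severe and mild piglets. edgeR's quasi-likelihood test, with batch as a term, called 0 of 10439 genes at a false discovery rate (FDR, the p-value adjusted over all genes) of 0.05, and the smallest FDR was 0.113. At an unadjusted p under 0.05 there were 1488 genes, 14.3% of those tested, where chance alone gives 522 on average. Of them, 789 (7.56% of those tested) read higher and 699 (6.7%) lower in severe piglets. At any p, 46% of all genes read higher and 54% lower. These shares are the background for the list counts over both batches below. On the same counts DESeq2 called 178 genes (1.71%) and limma with sample weights 950 (9.1%), and 147 genes were called by both in the same direction. Leaving out mild piglet 7 or severe piglet 9 let edgeR call 23 and 7 genes. Differences are given as log2 of severe over mild with batch as a term, with their standard error (SE), which had a median of 0.32 over all genes. Because edgeR called no gene over both batches, every gene below is given by its values and described as reading higher or lower, not as changed.

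B cell genes read lower in severe piglets. Of 16 tested genes of the B cell surface and antigen receptor, 15 read lower in severe piglets, against 54% of all genes tested, and 11 of those did so at an unadjusted p under 0.05, against a background of 6.7%. The median log2 difference of the list was -0.99, against -0.05 over all genes tested. DESeq2 called 5 of the 16 genes, all lower (0.968% of all genes), and limma 11 lower and 1 higher (3.83% and 5.27% of all genes). The exception was CD37, a tetraspanin that other leukocytes also carry, which read 0.58 ± 0.21 (SE) higher.

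MS4A1, the gene of CD20, measured 1.51, 1.70 and 2.77 CPM in the severe piglets of batch 1 and 1.89 and 2.58 CPM in those of batch 3. The mild range was 2.03 to 11.9 CPM with a median of 6.77 CPM. The groups were apart in batch 1 and overlapped in batch 3 through mild piglet 9 alone, which had the lowest MS4A1 level of the mild piglets. The log2 difference was -1.71 ± 0.36 (edgeR FDR 0.113).

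FCRL1, an Fc receptor-like protein of B cells, had 1.48, 1.45 and 3.03 CPM in severe piglets 1, 2 and 3 and 0.408 and 1.03 CPM in severe piglets 8 and 9. Its range in mild piglets was 1.66 to 8.60 CPM, with a median of 2.64 CPM. Severe and mild piglets did not overlap within either batch, and the log2 difference was -1.67 ± 0.30 (edgeR FDR 0.113). The related FCRL3 read -1.61 ± 0.36 (edgeR FDR 0.137), with severe piglet 8 at 0.662 CPM and the other 4 severe piglets between 2.23 and 3.29 CPM.

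**Figure D1:**
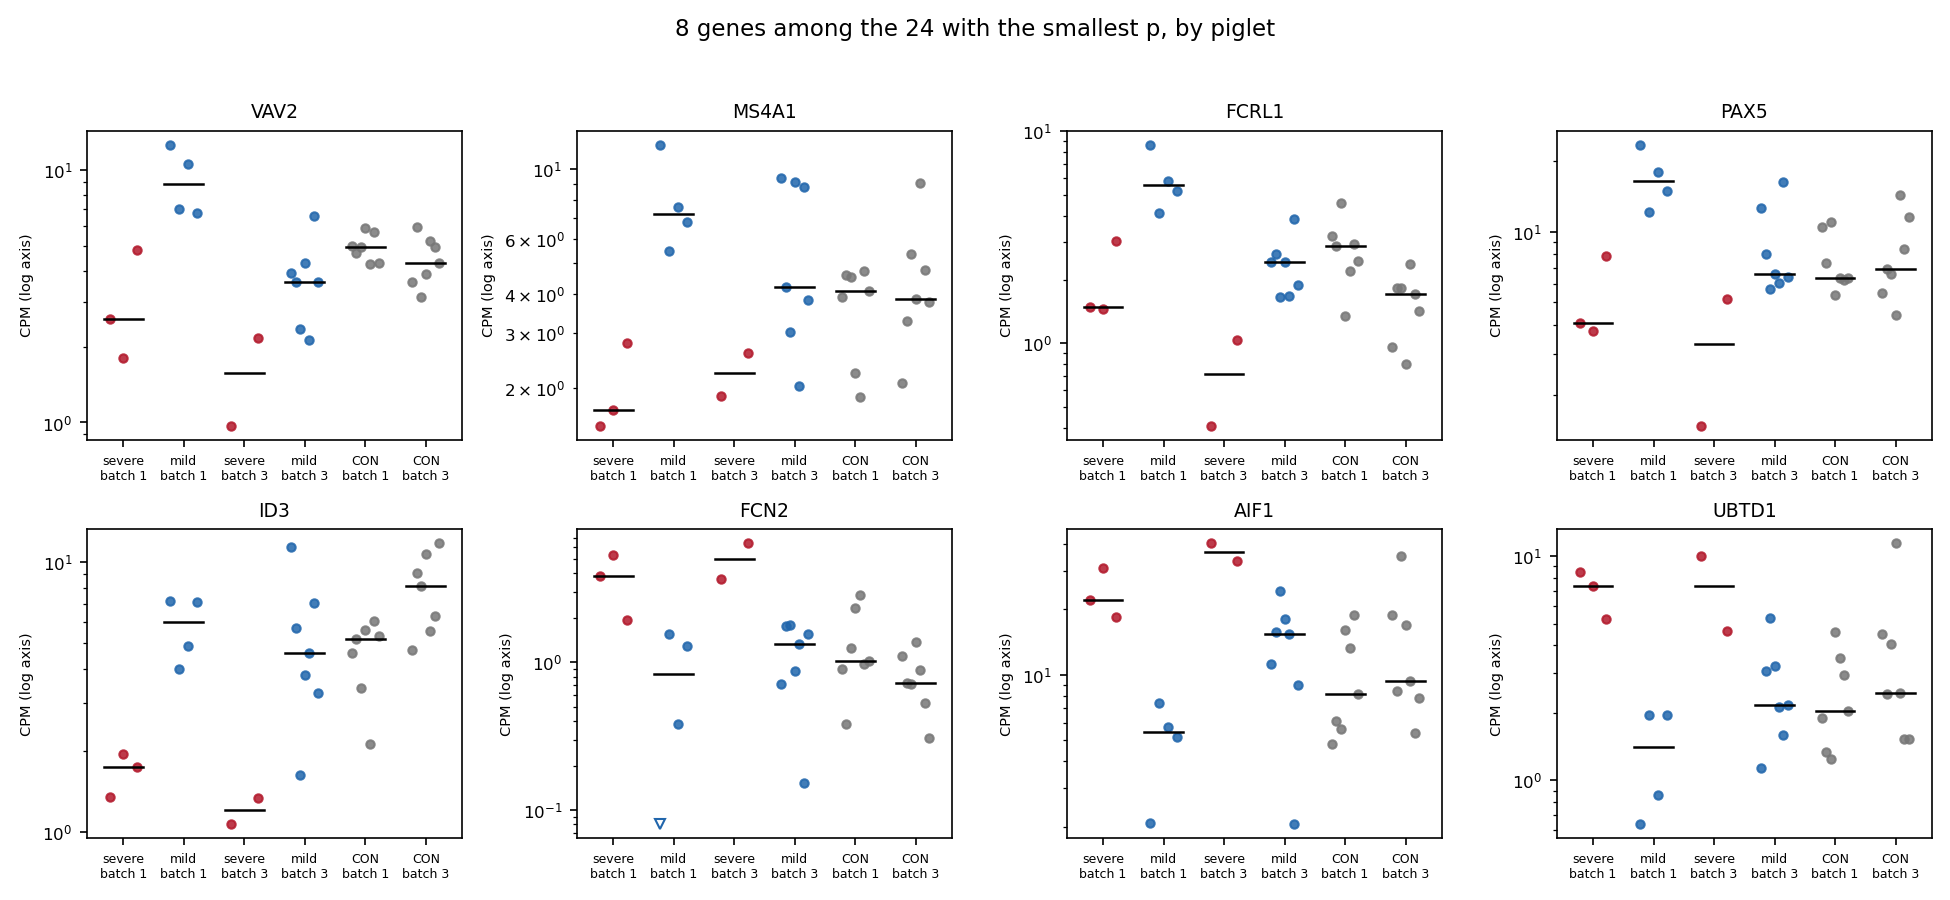
Level of 8 genes in CPM (log axis), 1 point per piglet, by severity and batch, with severe (red), mild (blue) and CON (grey) piglets; bars are medians and the open triangle marks a mild piglet with an FCN2 count of 0. The 5 B cell and ID3 panels show severe piglets at the low end of their batch, and the FCN2, AIF1 and UBTD1 panels show them at the high end.

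Other members of the B cell surface list differed between the batches. CD79A, the signalling partner of the B cell receptor, read -1.56 in batch 1 and -0.43 in batch 3, and CD79B read -1.87 and 0.24. CD72, an inhibitory coreceptor, read -2.07 and -0.12, and TNFRSF13C, the receptor for the survival factor BAFF, read -2.34 and 0.14; these 4 genes were picked after their values were seen. Without severe piglet 9, CD79B, CD72 and TNFRSF13C read -1.72, -2.07 and -1.51 over both batches, against -0.74, -1.04 and -0.99 with it. CXCR5, the receptor that guides B cells into follicles, was at 1.12 to 1.48 CPM in 4 severe piglets and at 4.03 CPM in severe piglet 9, against 1.24 to 7.82 CPM in mild piglets. The median of the list was -1.57 in batch 1 and -0.41 in batch 3, and 11 of its 16 members read lower in batch 3, against 54.1% of all genes there.

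As a mean of log2 CPM over its members, the B cell surface list stood at 1.52, 1.31 and 1.86 in the severe piglets of batch 1 and 1.11 and 1.74 in those of batch 3. The 11 mild piglets ranged from 1.73 to 3.35 with a median of 2.65. Only severe piglets 3 and 9 reached the lowest 2 mild piglets, numbers 7 and 9, which both belong to batch 3. The median of the list was -1.25 without severe piglets 2 and 9, -0.79 without mild piglets 1 and 10, and -0.64 with the run label in place of batch.

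The transcription factors of the B lineage read lower as well. Of 14 tested, 11 read lower, 8 of them at an unadjusted p under 0.05 and none higher at that level, and the median was -0.69. PAX5, which holds B cell identity, stood at 4.07, 3.75 and 7.87 CPM in severe piglets 1, 2 and 3 and at 1.48 and 5.16 CPM in severe piglets 8 and 9. Among mild piglets it ran from 5.70 to 23.4 CPM with a median of 12.1 CPM. Severe piglets were the lowest of their batch in both batches, and the log2 difference was -1.60 ± 0.33 (edgeR FDR 0.113).

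EBF1, which acts before PAX5 in B cell development, was low in all libraries, at 0 to 1.35 CPM in severe piglets and 0.481 to 3.26 CPM in mild ones. It read -2.37 ± 0.56 (edgeR FDR 0.141) and the groups did not overlap within a batch; only 0 to 21 counts per severe library lie behind it. BACH2, which restrains plasma cell formation, read -1.54 ± 0.54 and IKZF3, known as Aiolos, -0.60 ± 0.19, with FDR values of 0.245 and 0.209. Of the 10 plasma cell genes, 6 read lower and none had an unadjusted p under 0.05.

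ID3 encodes an inhibitor that binds E proteins, the factors that drive B and T cell development, and keeps them from DNA. It lies on chromosome 6, at 81422541 to 81424169 in the RefSeq annotation of Sscrofa11.1. Its level was 1.35, 1.94 and 1.74 CPM in the severe piglets of batch 1 and 1.07 and 1.34 CPM in those of batch 3, from 13 to 55 counts per library. Mild piglets ranged from 1.63 to 11.3 CPM with a median of 4.89 CPM. The severe piglets formed a narrow low group, and only mild piglet 7 of batch 3, at 1.63 CPM, lay within their range. Within each batch the severe piglets were below all mild piglets. The log2 difference was -1.94 ± 0.36 (edgeR FDR 0.113), with -1.78 in batch 1 and -2.16 in batch 3. The E protein genes TCF3 and TCF12, ID3's binding partners, read -0.49 ± 0.22 and -0.63 ± 0.28. Of 5 tested E protein and ID genes, 4 read lower, 3 of them at an unadjusted p under 0.05 (background 54% and 6.7%), and 1 read higher.

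Signalling genes of B cells were less uniform. Of 16 tested, 10 read lower, 5 at an unadjusted p under 0.05, and the median was -0.38, or -0.13 without severe piglet 9. VAV2, an exchange factor that acts below the antigen receptor, read -1.48 ± 0.31 (edgeR FDR 0.113). Severe piglet 9 stood far below the other 4 severe piglets for BCL10, an adaptor of NF-kB signalling, at 0.930 CPM against 3.03 to 4.24 CPM. It also did so for SWAP70, an exchange factor of activated B cells, at 0.723 CPM against 3.60 to 5.61 CPM. Without it BCL10 read -0.41 and SWAP70 -0.54.

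Of the 24 genes with the smallest p among those with a symbol and a mean of at least 1 CPM, 10 read lower and 14 higher, at FDR 0.113 to 0.141 and log2 differences between 0.73 and 2.25 in size. All 24 read the same way in both batches, and in 18 of them severe piglets stood wholly above or below the mild piglets of their batch in both batches. The ranking favours such genes, so these counts describe the choice; over all genes, 52.6% had the same sign in both batches, 76 genes (0.728%) had severe piglets wholly below and 59 (0.565%) wholly above. DESeq2 and limma each called all 24. Besides ID3, lower genes outside the B cell lists were PRKAR1B, a regulatory subunit of protein kinase A (-2.25 ± 0.44), the nuclear protein YLPM1 (-0.73 ± 0.17) and the splicing-related SUGP2 (-1.03 ± 0.24).

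Of the 14 higher genes, AIF1, an actin-binding protein of macrophages, measured 21.9, 30.8 and 18.3 CPM in severe piglets 1, 2 and 3 and 40.2 and 33.5 CPM in severe piglets 8 and 9. In mild piglets it ranged from 2.05 to 24.2 CPM with a median of 8.92 CPM. Severe piglets stood above all mild piglets of their batch, and the log2 difference was 1.84 ± 0.37 (edgeR FDR 0.113).

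FCN2, a ficolin that binds bacterial sugars and starts the lectin pathway of complement, had 3.84, 5.37 and 1.94 CPM in the severe piglets of batch 1 and 3.67 and 6.40 CPM in those of batch 3. The mild piglets ranged from 0 to 1.79 CPM with a median of 1.29 CPM. The lowest severe piglet lay above the highest mild piglet even across batches. The log2 difference was 2.06 ± 0.44 (edgeR FDR 0.113), with 2.06 in batch 1 and 2.05 in batch 3.

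UBTD1, a ubiquitin-domain protein, had the smallest p of all genes. It measured 8.505, 7.31 and 5.22 CPM in severe piglets 1, 2 and 3 and 10.04 and 4.65 CPM in severe piglets 8 and 9, against 0.637 to 5.27 CPM in mild piglets with a median of 1.96 CPM. The groups overlapped through mild piglet 7 alone, and the log2 difference was 1.90 ± 0.34. Others of the 14 were the mitochondrial sulphur dioxygenase ETHE1 (0.97 ± 0.20), the repressor JDP2 (1.32 ± 0.29), the stress kinase MAPKAPK3 (0.84 ± 0.19), the lymphotoxin receptor LTBR (1.19 ± 0.28) and the signal-regulatory protein SIRPB2 (1.33 ± 0.30). PIGH, an enzyme of anchor synthesis, LRPAP1, a receptor chaperone, and SLC43A3, a purine base transporter, read 1.12, 1.17 and 1.09 higher. MILR1, an inhibitory receptor of mast cells, INPP5K, an inositol phosphatase, and RAMP2, a receptor partner, read 1.13, 0.74 and 1.43 higher.

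Monocyte and macrophage genes read higher in severe piglets. Of 17 tested, 14 read higher, against 46% of all genes tested, and the median was 0.81. At an unadjusted p under 0.05, 7 read higher (background 7.56%) and 1 lower (background 6.7%). Their summed level was 312 to 718 CPM in severe piglets and 71.2 to 488 CPM in mild ones, and no member was at 0 in all 16 libraries. CD163, the scavenger receptor for haemoglobin, stood at 78.5, 46.7 and 26.3 CPM in severe piglets 1, 2 and 3 and at 172 and 47.3 CPM in severe piglets 8 and 9. The mild range was 1.27 to 80.4 CPM with a median of 20.5 CPM. In batch 1 the lowest severe piglet was above the highest mild piglet, at 12.1 CPM, whereas the groups overlapped in batch 3. The log2 difference was 2.07 ± 0.60 (edgeR FDR 0.186). CSF1R, the receptor for macrophage growth factor, read 1.15 ± 0.32 and TGFBI, a secreted matrix protein of monocytes, 1.10 ± 0.42.

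Mild piglets 1 and 10 had mean log2 CPM values of 0.70 and 1.26 for this list, below the 1.67 to 3.26 of the other mild piglets and the 2.69 to 3.49 of the severe ones. Without them the median of the list was 0.54 and 7 members still read higher at an unadjusted p under 0.05. The within-batch medians were 0.99 in batch 1 and 0.30 in batch 3. With the run label in place of batch the median of the list was 0.36. The B cell list thus read lower and the monocyte list higher in the same piglets, and the part of one in the other was not tested.

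Neutrophil genes followed the monocyte genes with a wider spread. Of 14 tested granule genes, 13 read higher (background 46%), 7 at an unadjusted p under 0.05 (background 7.56%), with a median of 0.90. Their summed level was 497 to 1530 CPM in severe piglets and 49.2 to 2410 CPM in mild piglets, so mild piglets reached both extremes. CHI3L1, a chitinase-like granule protein, measured 3.68, 4.59 and 2.71 CPM in severe piglets of batch 1 and 10.8 and 9.61 CPM in those of batch 3, against 0.319 to 8.24 CPM in mild piglets with a median of 1.86 CPM. Severe piglets were the highest of their batch, at a log2 difference of 1.42 ± 0.44 (edgeR FDR 0.204). The protease inhibitor SLPI read 1.30 ± 0.53 and NCF4, a subunit of the oxidase that makes superoxide, 0.71 ± 0.30. All 10 genes of mature neutrophils read higher, 2 at an unadjusted p under 0.05: TREM1, an amplifying receptor (1.03 ± 0.44), and IL1R2, the decoy receptor for interleukin 1 (1.38 ± 0.61). The median of these mature neutrophil genes was 1.23 in batch 1 and -0.02 in batch 3. With the run label in place of batch it was 0.13, and that of the granule genes was 0.57. Without mild piglets 1 and 10 the granule median was 0.66 with 5 genes higher at that level, and the mature neutrophil median 0.34 with 1, against 0.64 over all 16 piglets.

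**Figure D2:**
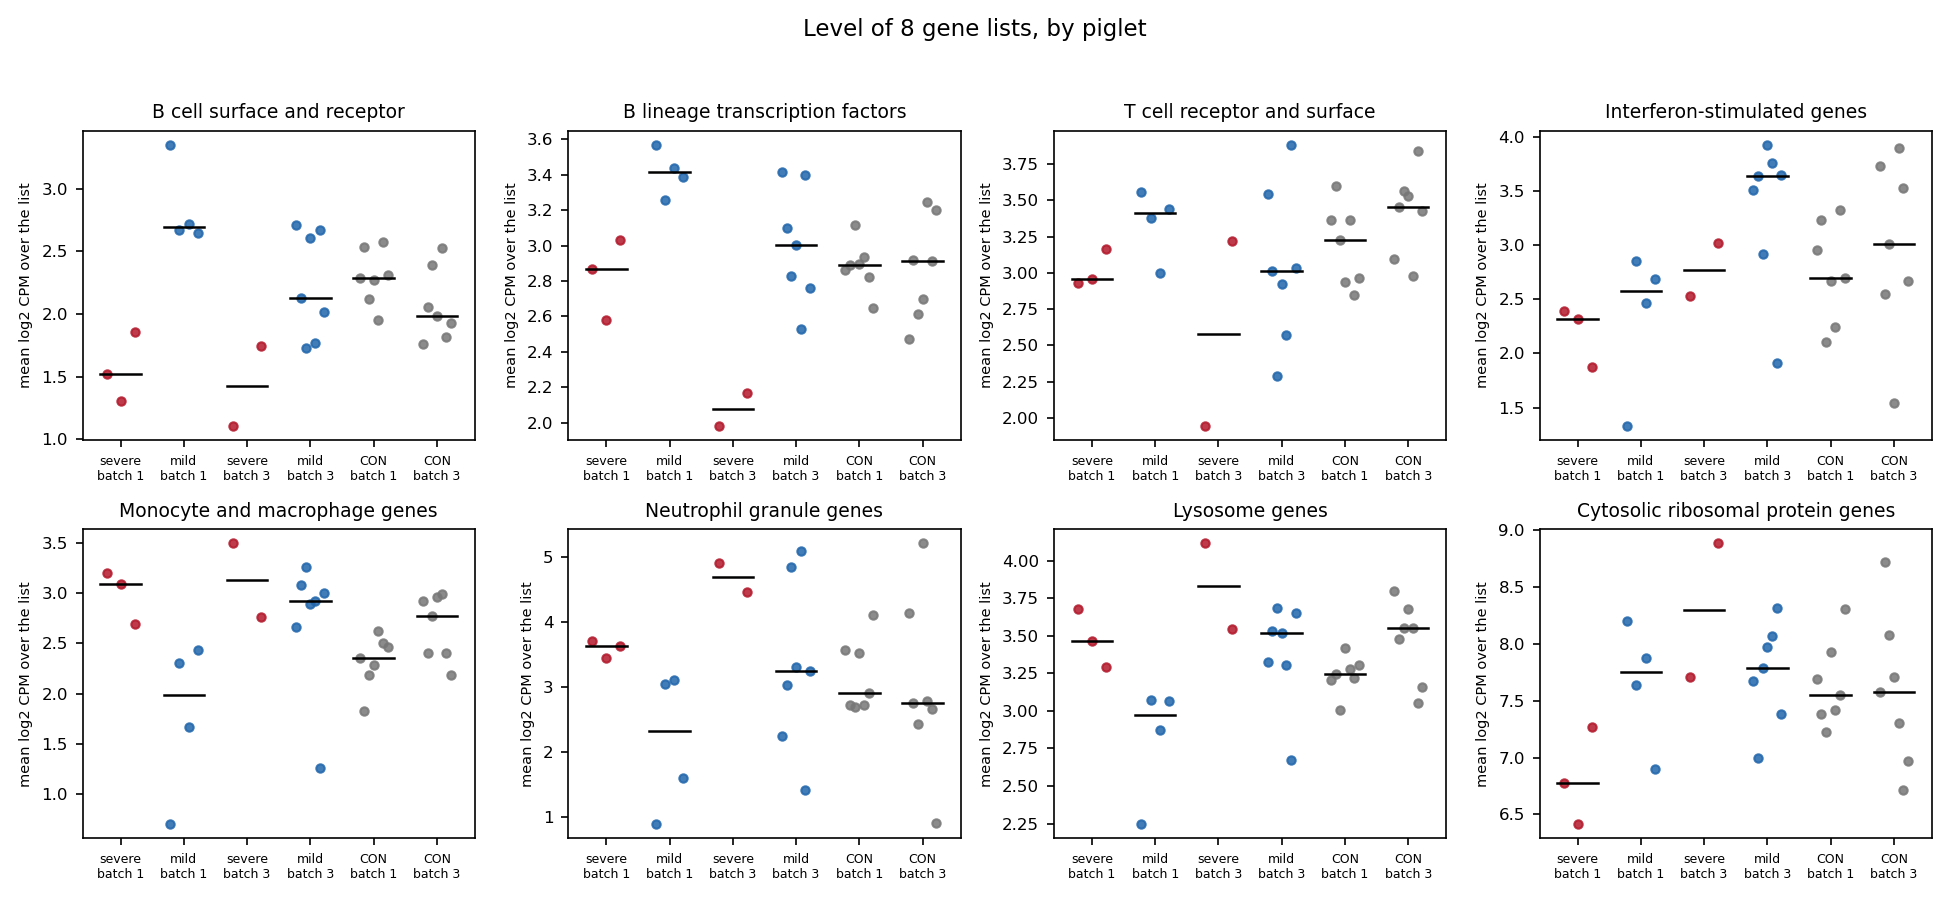
Mean log2 CPM of 8 gene lists, 1 point per piglet, by severity and batch, with severe (red), mild (blue) and CON (grey) piglets; bars are medians. Severe piglets are low for B cell genes in both batches, while their ribosomal protein genes are low in batch 1 and not in batch 3; mild piglets 1 and 10 are the lowest points for monocyte genes.

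Lysosome genes read higher in both batches, with 28 of 29 higher, 16 of them at an unadjusted p under 0.05 (background 7.56%). The median was 0.58, with 0.52 in batch 1 and 0.50 in batch 3. LIPA, the acid lipase, read 0.91 ± 0.25 (edgeR FDR 0.182), the proton pump subunit ATP6V1H 0.71 ± 0.22 and the protease CTSB 0.72 ± 0.22. Without mild piglets 1 and 10 the count was 13 higher and the median 0.51. With the run label in place of batch the median was 0.49. DESeq2 called 1 of the 29 genes and limma 8, all higher, against 0.738% and 5.27% of all genes.

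Among genes that sense bacteria, 32 of 38 of the Toll-like receptor and lipopolysaccharide list read higher (background 46%), with a median of 0.45. At an unadjusted p under 0.05, 14 read higher (background 7.56%) and none lower. TLR2, the receptor for bacterial lipoproteins, measured 16.8, 18.3 and 9.03 CPM in severe piglets 1, 2 and 3 and 27.0 and 18.9 CPM in severe piglets 8 and 9. Mild piglets ranged from 2.39 to 23.6 CPM with a median of 10.3 CPM. The log2 difference was 1.16 ± 0.33 (edgeR FDR 0.182), with no overlap in batch 1 and an overlap in batch 3. LY96, the lipopolysaccharide-binding partner of TLR4, read 0.90 ± 0.30. NFKBIA, the inhibitor that NF-kB itself induces, read 2.43 in batch 1 and 0.09 in batch 3. With the run label in place of batch NFKBIA read 0.66, against 1.48 with batch, and the median of the list was 0.29.

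Of 11 inflammasome genes, 10 read higher (background 46%), 6 at an unadjusted p under 0.05 (background 7.56%), with a median of 0.78. PYCARD, the adaptor that joins sensors to caspase 1, had 6.76, 5.79 and 4.52 CPM in the severe piglets of batch 1 and 14.7 and 11.98 CPM in those of batch 3. The 11 mild piglets spanned 1.75 to 10.9 CPM with a median of 3.73 CPM. It did not overlap within either batch and read 1.14 ± 0.27 (edgeR FDR 0.141). The sensor NLRP3 read 1.00 ± 0.35 and its regulator NLRP12 0.81 ± 0.35. With the run label in place of batch the median of the list was 0.52.

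Complement and acute phase genes had a median of 0.91, with 10 of 13 higher and 6 at an unadjusted p under 0.05 (background 46% and 7.56%). FCN2 belongs to this list and to the monocyte list. The median of the complement list stood at 0.85 in batch 1 and 0.11 in batch 3, and at 0.25 when the run label replaced batch. CFP, or properdin, which stabilises the complement convertase, read 1.24 ± 0.35 and CFD, the protease factor D, 0.91 ± 0.29. Of 28 glucocorticoid response genes, 20 read higher and 8 did so at an unadjusted p under 0.05 (background 46% and 7.56%), with a median of 0.34. FKBP5, a chaperone that glucocorticoids induce, measured 37.1, 32.7 and 15.4 CPM in severe piglets 1, 2 and 3 and 23.2 and 31.4 CPM in severe piglets 8 and 9. In mild piglets it ranged from 7.80 to 31.9 CPM with a median of 15.3 CPM. It read 1.07 ± 0.28 (edgeR FDR 0.171), and the groups overlapped in batch 3. The median of the glucocorticoid list was 0.71 in batch 1 and -0.03 in batch 3, and 0.24 when the run label replaced batch. ANXA1, a mediator of the glucocorticoid action on leukocytes, read 1.01 ± 0.36, and CEBPE, a factor of late granulocyte maturation, 1.69 ± 0.59.

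Of 30 glycolysis and hypoxia genes, 23 read higher and 6 did so at an unadjusted p under 0.05 (background 46% and 7.56%). Among the 6 were the pentose phosphate enzymes TKT (0.79 ± 0.28) and PGD (1.08 ± 0.38). Of 41 cytokine and receptor genes, 32 read higher, 8 at that level, with the interferon gamma receptor chain IFNGR2 at 0.99 ± 0.32. The median of the cytokine list was 0.63 in batch 1 and 0.02 in batch 3, and 0.11 when the run label replaced batch. TNFRSF1B, a receptor for tumour necrosis factor, read 0.97 ± 0.34. ASL, the argininosuccinate lyase of arginine synthesis, read 1.90 ± 0.51 (edgeR FDR 0.18). It stood at 2.58 CPM in severe piglet 9 and at 0.353 to 0.815 CPM in the other 4, and without severe piglet 9 the log2 difference was 1.21 (FDR 0.266). Of 8 eosinophil and basophil genes, 6 read higher, 2 at an unadjusted p under 0.05, with a median of 0.59.

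T cell genes mostly read lower, but few did so at an unadjusted p under 0.05. Of 20 surface and receptor genes 15 read lower, 1 at an unadjusted p under 0.05, and of 13 T lineage factors 10 read lower, 2 at that level (background 6.7%); the medians were -0.32 and -0.55. Without severe piglets 2 and 9 the median of the surface list was -0.68 and 6 members read lower at that level, a count without its own background. CD3D, a chain of the T cell receptor complex, had 10.2, 9.04 and 12.1 CPM in severe piglets 1, 2 and 3 and 4.08 and 11.7 CPM in severe piglets 8 and 9, against 5.48 to 24.3 CPM in mild piglets with a median of 13.3 CPM. The groups overlapped, with severe piglet 8 the lowest of the 16, and the log2 difference was -0.66 ± 0.31. GATA3, a factor of helper T cells, read -0.76 ± 0.31 and TOX, a factor of thymic and activated T cells, -0.95 ± 0.42. Of 15 natural killer and cytotoxic genes 10 read lower, with only IL2RB, a receptor chain for interleukins 2 and 15, at an unadjusted p under 0.05 (-0.70 ± 0.24). Their median was -0.35, against -1.02 without severe piglets 2 and 9, when 5 read lower at that level, and 0.08 without mild piglets 1 and 10.

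Class II presentation genes split between batches: 11 of 13 read lower in batch 1 and 3 in batch 3, with medians of -0.78 and 0.26. Over both batches the median was -0.38 with 3 lower at an unadjusted p under 0.05, and without severe piglets 2 and 9 it was -0.71 with 7 lower. Among them, HLA-DRA, the alpha chain that presents peptide to helper T cells, stood at 6.53, 6.47 and 13.2 CPM in severe piglets 1, 2 and 3 and at 8.56 and 31.1 CPM in severe piglets 8 and 9. Mild piglets ranged from 13.1 to 48.3 CPM with a median of 23.5 CPM. Severe piglets 1, 2 and 8 lay below every mild piglet, severe piglet 3 beside the lowest of them and severe piglet 9 well within their range, and the log2 difference was -1.11 ± 0.38 (edgeR FDR 0.236), or -1.75 without severe piglet 9. The transactivator of class II genes, CIITA, read -1.60 in batch 1 and -0.04 in batch 3, and the promoter-binding RFX5 -0.64 and -1.10.

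Interferon-stimulated genes had 27 of 34 members lower, 5 at an unadjusted p under 0.05, and a median of -0.23. RSAD2, or viperin, measured 1.31, 0.954 and 0.129 CPM in the severe piglets of batch 1 and 0.866 and 0.310 CPM in those of batch 3. Among mild piglets it ran from 0.379 to 9.13 CPM with a median of 3.26 CPM, and mild piglet 10 alone brought the groups to overlap within its batch. RSAD2 read -2.28 ± 0.59 (edgeR FDR 0.17) and RIGI, the cytosolic sensor of viral RNA, -1.10 ± 0.28 (FDR 0.166). Without mild piglets 1 and 10, which had the lowest list means among the mild piglets of their batches, the median was -0.41 and 9 members read lower at an unadjusted p under 0.05. Of 24 cell cycle genes 21 read lower, 3 at that level, with the ubiquitin enzyme UBE2C at -1.43 ± 0.48 and thymidylate synthase TYMS at -0.92 ± 0.35.

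**Figure D3:**
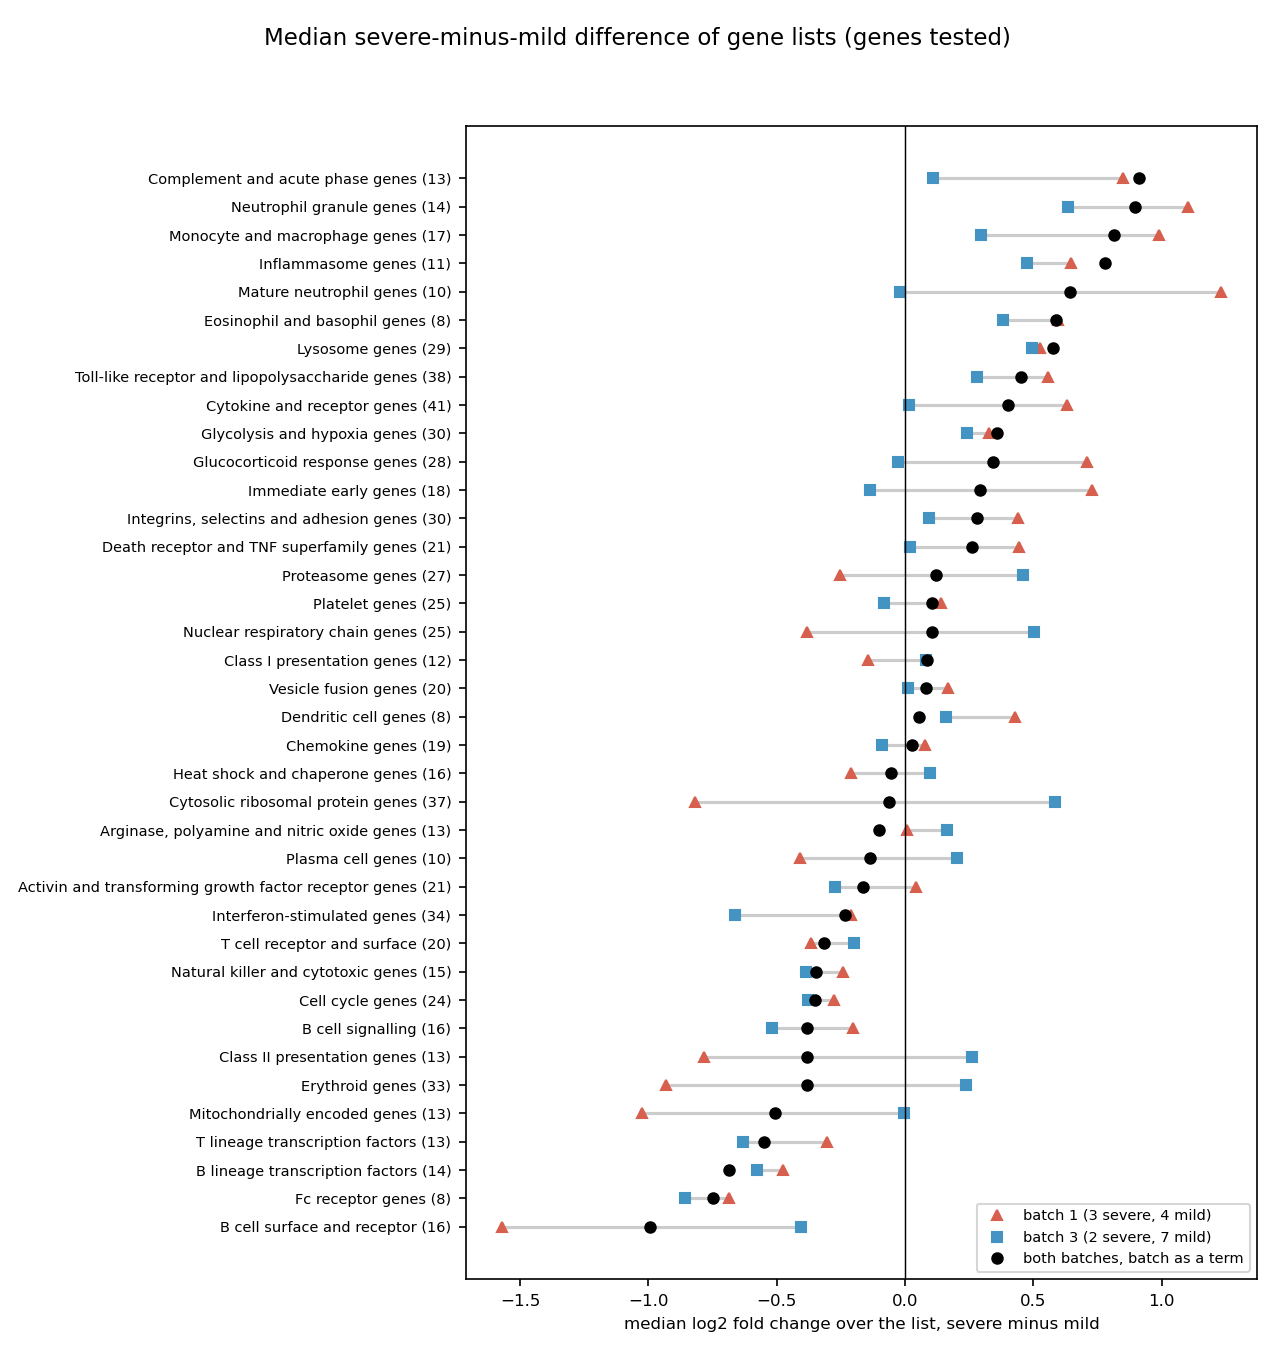
Median log2 difference, severe minus mild, over each gene list with at least 8 tested genes, in batch 1 (triangles), in batch 3 (squares) and with both batches and batch as a term (circles); the number of genes tested stands in brackets. B cell lists lie left of 0 and neutrophil granule, monocyte and lysosome lists right of 0 in both batches, while the ribosomal protein list lies on opposite sides of 0 in the 2 batches.

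The severe-minus-mild difference was not the same in both batches for several gene lists. All 37 ribosomal protein genes of the cytosol read lower in batch 1 (median -0.82; 55.5% of all genes read lower there), whereas 1 of the 37 did so in batch 3 (median 0.59). The list mean in batch 3 was 7.71 in severe piglet 8 and 8.88 in severe piglet 9, against 6.998 to 8.31 log2 CPM in mild piglets. Over both batches the median was -0.06, and -0.59 without severe piglet 9. In the test of the difference between batches, 24 of the 37 had an unadjusted p under 0.05, all higher in batch 3, against 7.16% of all genes in that direction and 8.15% in the other. The nuclear respiratory chain genes, proteasome genes and erythroid genes were split in the same direction: their medians were -0.38, -0.25 and -0.93 in batch 1 and 0.50, 0.46 and 0.24 in batch 3. Of mitochondrially encoded genes, 13 of 13 read lower in batch 1 and 7 in batch 3, with ND2 of complex I at -1.004 and -0.38. Before TMM scaling, their share of counts averaged 0.367% in severe and 0.357% in mild libraries of batch 1. In batch 3 it averaged 0.311% and 0.473%. The TMM factors behind the CPM levels averaged 1.66 in severe and 0.989 in mild libraries of batch 1, and the part of scaling was not tested. No gene passed the interaction test: edgeR called 0 of 10439, 1598 (15.3%) had an unadjusted p under 0.05 and the smallest FDR was 0.179. The same fit gave the within-batch differences. There the batch 3 difference passed an FDR of 0.05 in 23 genes (0.22%) and the batch 1 difference in 0. Either batch fitted alone called 0.

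The gene with the smallest interaction p among the 5 named was ATOX1, a copper chaperone of the cytosol. It had 25.5, 19.9 and 17.2 CPM in severe piglets 1, 2 and 3, against 213, 248, 186 and 31.3 CPM in the mild piglets of batch 1, and 47.7 and 128 CPM in severe piglets 8 and 9, against 17.4 to 76.1 CPM in the mild piglets of batch 3. It read -3.03 in batch 1 and 0.99 in batch 3. TRIM4, a ubiquitin ligase, read -0.28 and -2.32, ASPH, a hydroxylase, 0.13 and -4.87, and MAP1S, a microtubule-binding protein, -0.46 and 1.53. For ASPH, severe piglets 8 and 9 had only 1 and 0 counts, against 12 to 52 counts in the mild piglets of batch 3. WDR35, a ciliary transport protein, read 0.89 in batch 1, and in batch 3 both severe piglets were at 0 counts, against 4 to 25 counts in mild piglets. Across all genes the batch 1 and batch 3 differences correlated at a Pearson r of 0.0935 (10439 genes, which are not independent replicates; the 2 batches share no piglet).

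**Figure D4:**
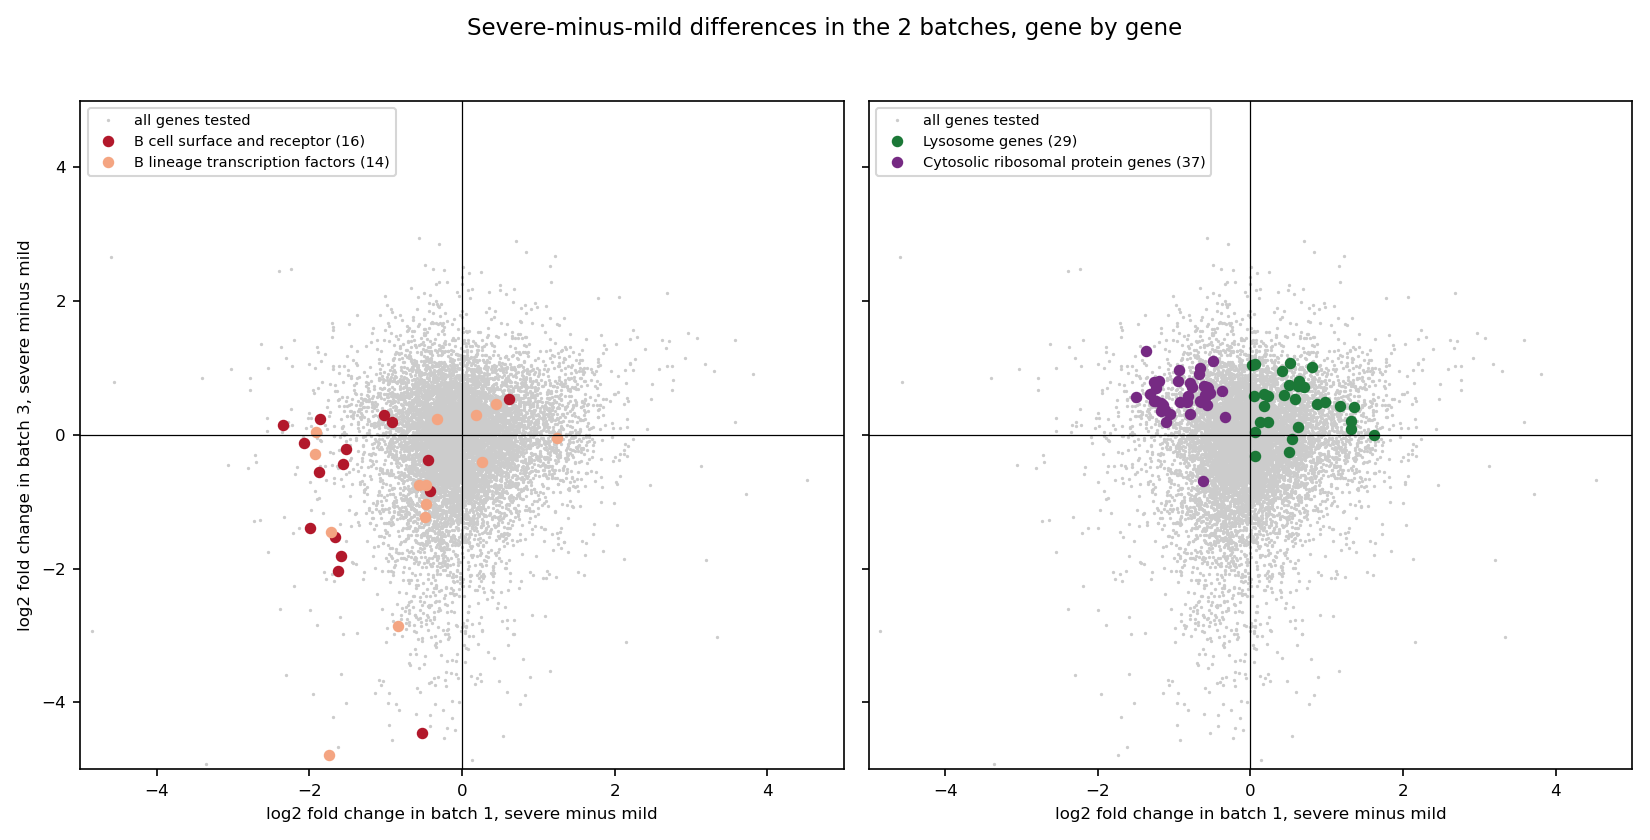
Log2 difference, severe minus mild, of each tested gene in batch 1 (horizontal axis) and batch 3 (vertical axis), with B cell lists in the left panel and lysosome and ribosomal protein lists in the right panel; 75 genes lie outside the axes. B cell genes fall mostly at the lower left, lysosome genes at the upper right, and ribosomal protein genes at the upper left.

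The CON piglets placed the levels. The B cell surface list averaged 1.56 in severe, 2.84 in mild and 2.29 in CON piglets of batch 1 (mean log2 CPM, n = 3, 4 and 7), and 1.42, 2.23 and 2.06 in batch 3 (n = 2, 7 and 7). Thus in batch 1 severe piglets read below CON and mild piglets above it, whereas in batch 3 mild piglets were near CON. Monocyte genes averaged 2.99 in severe, 1.78 in mild and 2.32 in CON piglets of batch 1, and 3.13, 2.72 and 2.66 in batch 3. On these means severe piglets read above CON in both batches, and mild piglets below CON in batch 1 and near it in batch 3. The batch 1 mild mean includes mild piglet 1 at 0.70. The other mild piglets of batch 1, at 1.67 to 2.44, overlapped CON, at 1.83 to 2.62. Some CON libraries of batch 3 carry the run label BKDL, whereas the NEC libraries of that batch carry FKDL. Median ID3 was 1.35 CPM in severe, 4.89 CPM in mild and 5.57 CPM in CON piglets.

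The 4 severe piglets of batch 2 share no piglet with this comparison, but their only reference is CON. In them, 15 of the 16 B cell surface genes read lower than in the 5 CON piglets, against 51.7% of all genes, with a median of -0.57 and 5 genes at an unadjusted p under 0.05 (background 5.07%). ID3 read -1.07 ± 0.26 and CD163 1.93 ± 0.50 (edgeR FDR 0.258 for both). Of 20 T cell surface genes 19 read lower in batch 2, 11 at an unadjusted p under 0.05, with a median of -0.61. Ribosomal protein genes read lower in 36 of 37 (median -0.32), whereas 13 of 15 natural killer genes (median 0.996) and 21 of 24 cell cycle genes (median 0.22) read higher than in CON. At an unadjusted p under 0.05, 6 natural killer and 2 cell cycle genes read higher (background 5.16%). At that level 1 natural killer gene and 0 ribosomal protein genes read lower. FCN2 and UBTD1 read 0.04 ± 0.45 and 0.05 ± 0.58 there, and AIF1 0.27 ± 0.48. Of the 24 genes with the smallest p between severe and mild, 17 had the same sign in batch 2. The share of all genes with the same sign was not computed, so this count has no background and nothing is read from it. edgeR called 0 of 10823 genes in batch 2, with 1108 (10.2%) at an unadjusted p under 0.05, and DESeq2 called 158.

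AOAH, ARG2 and PAK2, chosen with knowledge of the study, did not pass the test between the severities. AOAH, which inactivates bacterial lipopolysaccharide, read 0.16 ± 0.24, the arginase ARG2 0.57 ± 0.49 and the kinase PAK2 0.10 ± 0.23 (edgeR FDR 0.776, 0.594 and 0.857). PAK2 had 27.6, 28.4 and 22.1 CPM in severe piglets 1, 2 and 3 and 20.6 and 9.19 CPM in severe piglets 8 and 9, against 15.5 to 25.8 CPM in mild piglets. Severe piglet 9 was the lowest of the 16 for PAK2, and ARG2 and PAK2 read in opposite directions in the 2 batches.

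None of 4 library measures passed the test between severities. Counts on genes averaged 18.2 M in severe libraries and 21.5 M in mild libraries (SD 4.45 and 4.24, n = 5 and 11), with a difference of -1.92 on that scale within batches. An exact permutation test over 1260 arrangements within batches, 2-sided, gave p = 0.167, and 0.67 adjusted over 4 measures. The globin share (HBB, HBM, HBQ1 and HBZ) was 56.7% in severe and 57.9% in mild libraries (exact permutation p = 0.892, adjusted p = 0.892). Its within-batch difference was -0.43 points, made of -4.58 in batch 1 and 5.80 in batch 3. The mitochondrial share was 0.344% in severe and 0.431% in mild libraries (exact permutation p = 0.511, adjusted p = 0.892). Genes detected averaged 12750 in severe and 12990 in mild libraries (exact permutation p = 0.767, adjusted p = 0.892). The severe-minus-mild difference in genes detected was 723 in batch 1 and -1478 in batch 3. The share of the 10 most abundant genes averaged 78.0% in severe and 86.9% in mild libraries of batch 1, and 87.6% and 84.1% in batch 3. Reads aligned to several places took 26.6% of all deposited counts in severe and 28.2% in mild libraries of batch 1, and 19.5% and 27.7% in batch 3; both measures were not tested.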

How the data were processed

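The tools named per the submitters' processing notes are TopHat, Trim Galore, DESeq2 and HTSeq, with Sscrofa11.1 as build; the sources used here give no version, annotation release or strand setting. The authors deposited raw counts of reads for 25880 pig genes with Ensembl IDs, each piglet in its own file, which ends with summary lines for reads on no gene. Summary lines entered neither library sizes nor tests; reads aligned to several places made up 16.7 to 45.3% of the total with them, reads outside features 0.491 to 5.21% and ambiguous reads 3.32 to 15.2%. Near-identical copies are therefore uncertain, and reads of overlapping genes cannot be assigned to a strand. The ID table named 14857 genes, 9076 of the 10439 tested.

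The test was edgeR 4.0.16 (R 4.3.3): quasi-likelihood with robust dispersions, TMM scaling, filterByExpr with a minimum count of 10, the 16 libraries, batch and severity, and Benjamini-Hochberg adjustment at 0.05. The error (SE) of a log2 difference was taken as its size over the root of its F statistic. The CPM levels use the TMM factors of all 39 libraries, and list levels are means of log2 CPM with a prior count of 0.5. Batch 2 was fitted apart. Libraries of the same group all differed beyond counting noise (lowest chi-square per degree of freedom 12.5). Scripts were tested on simulated data. Depth limits genes of few counts.

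No gene passed the FDR, so the 24 genes with a symbol, a mean of at least 1 CPM and the smallest p, up to 4 members with the smallest p per list, 5 interaction genes and ID3, CD163, AOAH, ARG2, FKBP5 and PAK2 were named, with Y-linked genes left out and not every such gene printed; a few are not reported here; CD37, CD79A, CD79B, CD72 and TNFRSF13C were added after their values were seen. The comparison, the 43 gene lists and the tests were chosen with earlier results of these data known. Alternatives were DESeq2 1.42.0, limma 3.58.1, sva 3.50.0, other scalings, filters, terms and sample sets, and leaving out each piglet; leaving out severe piglets 2 and 9, or mild piglets 1 and 10, was chosen after seeing the data.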

Additional observations from a re-analysis of the deposited data

Results flagged for a closer look

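Within the 5 severe piglets, 152 measures were examined for a piglet far from the other 4, and 16 had one; chance flags about 1 in 20 groups. Of the 16, 12 concern severe piglet 9, labelled male with fewer Y-linked counts than the other male piglets of its batch. The other 4 concern severe piglet 8, the other severe piglet of batch 3. The library of severe piglet 9 also had the fewest genes detected of the 39 (10674) and the lowest TMM factor in the comparison (0.399). The part of library quality in these flags was not tested.

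On the log2 CPM scale, severe piglet 9 was above the others for CD72 at 2.46 (next -0.04), CXCR5 at 2.02 (next 0.58) and CIITA at 3.46 (next 2.10). It was below them for BCL10 at -0.0732 (next 1.61), SWAP70 at -0.43 (next 1.86), TOX at -2.14 (next 0.58), CD9 at 4.47 (next 5.56) and PAK2 at 3.20 (next 4.37). Severe piglet 8 was below the others for FCRL3 at -0.55 (next 1.17), CD3D at 2.04 (next 3.18) and GATA3 at 1.498 (next 2.66).

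For list means on the same scale, severe piglet 9 was the low one for B cell signalling genes at 1.88 (next 2.82), dendritic cell genes at -0.033 (next 0.99), integrins, selectins and adhesion genes at 4.09 (next 4.77) and activin and transforming growth factor receptor genes at 0.98 (next 1.86). Severe piglet 8 was the low one for T cell receptor and surface genes at 1.94 (next 2.93).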

How the results depend on the processing

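The count of genes called between severe and mild piglets, 0 in the reported fit, was 178 with DESeq2, 950 with limma, 10 with 1 surrogate variable, 10 over the 30 piglets of batches 1 and 3, 12 over all 39 piglets, and 0 to 23 with 1 piglet left out (23 without mild piglet 7, 7 without severe piglet 9, 0 otherwise); the cause was not tested. FCRL1 was called by 5, and ID3, UBTD1 and VAV2 by 4 each, of the 5 edgeR settings that called genes. The count was 0 with DESeq2's size factors, other filters, a sex term, no batch term, the run label, the most abundant genes removed, either batch alone, severe piglets 2 and 9 left out, or mild piglets 1 and 10 left out (smallest FDR 0.0526). Interaction calls, 0 in the reported fit, ranged from 0 to 1589 with 1 piglet left out (1589 without severe piglet 8, 14 without mild piglet 4). Without severe piglet 8 or 9 batch 3 holds 1 severe piglet, which is assumed to vary like the others. Batch 2 calls, 0, were 158 with DESeq2 and 0 to 1 with 1 piglet left out. Globin share differences, -0.43 points, were 5.80 in batch 3 alone and -2.35 to 1.56 with 1 piglet left out; the mitochondrial share, -0.06 points, was 0.00987 in batch 1 alone; genes detected, -157, were 723 in batch 1 alone and -445 to 411 with 1 piglet left out. Of 107 genes followed, 9 changed sign in at least 1 setting. Values in batch 1 or batch 3 in the next sentence come from fits of that batch alone. AOAH read -0.063 with no batch term and -0.036 to 0.29 with 1 piglet left out; ARG2 -0.0645 with the run label and -0.30 in batch 3; PAK2 -0.11 with the run label, -0.0653 with a surrogate variable and -0.41 in batch 3; CD79B 0.22 and TNFRSF13C 0.14 in batch 3; ATOX1 0.98 in batch 3, ASPH 0.0687 in batch 1; WDR35 0.29 with limma, 0.89 in batch 1 and -0.79 to 0.17 with 1 piglet left out; MAP1S -0.0188 with limma and -0.47 in batch 1. The medians of the B cell surface, monocyte, neutrophil granule, inflammasome and lysosome lists kept their sign in all 32 settings. No paired analysis was possible because replicate numbers follow accession order and pair no piglets.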
